A study of Mus musculus with 3 samples.

Results

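The 10 core circadian clock genes Clock, Arntl, Per1, Per2, Per3, Cry1, Cry2, Nr1d1, Nr1d2 and Dbp were described among the 39304 genes of a glomerular RNA sequencing table. They were taken by name, and all 10 were matched to mouse Ensembl identifiers. The RNA was from kidney glomeruli, the capillary tufts that filter blood, of 1 male wild-type mouse (C57BL/6, 8 weeks of age). Dissociated cells were captured and lysed one by one in a Fluidigm C1 microfluidic system and typed by qPCR of marker genes, and the cDNA of 15 mesangial cells (contractile support cells between the capillaries) and 15 endothelial cells (the capillary lining) was pooled. The pool was split into 3 aliquots, each sequenced as 1 library, so there is 1 group, no control, and every SD is over 3 technical aliquots (n = 3) of 1 mouse. The time of day of sampling is not given in the sources used here, and a single sampling shows levels and no rhythm. Reads of both cell types were mixed, so which of them made a transcript cannot be told, and fewer cells of a type and less RNA per cell cannot be told apart.

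The clock is a feedback loop of transcription. CLOCK and its partner BMAL1, the product of Arntl (renamed Bmal1 in newer tables), bind E-box elements and switch on the Per and Cry genes, whose proteins return to the nucleus and repress them. In a second loop the same pair switches on Nr1d1 and Nr1d2, which encode the nuclear receptors REV-ERB alpha and beta. These repress Arntl, Clock, Npas2, Nfil3 and Cry1 through the ROR response element (RORE), the site at which ROR receptors activate. DBP, also driven by E-boxes, activates genes with D-box elements, the Per genes among them, and NFIL3 represses at the same sites. In rhythmic tissues the E-box genes and Arntl are known to peak at opposite phases. The kidney has such a clock, and endothelial and mesangial cells are known to carry one.

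These elements, through which the loops described above act, were looked for in the RefSeq promoter windows. The windows (GRCm38.p6, 250 bases before to 50 bases after each start site) held 9 of the 10 members, without Per2. Both strands were searched for the E-box CACGTG, the related E′-box CACGTT, the D-box in the form TTATGTAA or in the form TTACGTAA, the cyclic AMP response element TGACGTCA and the RORE. The motifs share no overlapping matches in the members. Of the 9 members with a window 6 held at least 1 motif, while Clock, Nr1d2 and Dbp held none. Clock had 3 windows, and Arntl and Per1 had 2 each. The share of all windows with any of these motifs was not computed, so the count of 6 has no background beside it. No member held the second D-box form (0.119% of windows) or TGACGTCA (1.79%). A stretch of the Per3 window (chr4:151044804-151044882, minus strand) held the first D-box form at 2 places, a motif present in 0.938% of 32851 windows and at 2 or more places in 7 of them. A stretch of the Cry1 window (chr10:85185097-85185145, minus strand) held an E′-box on the opposite strand and an E-box. E-boxes stood in 7.15% of all windows and E′-boxes in 4.68%. An E-box was also found in 1 of the 2 windows of Per1 (chr11:69098763-69098808, plus strand). That stretch lies within the annotated gene, which starts at base 69095217. An E′-box on the opposite strand was found for Nr1d1 (chr11:98775380-98775425, minus strand) and Cry2. A RORE, found in 0.384% of windows, lay 27 to 37 bases from the second annotated start of Arntl (chr7:113207528-113207556, plus strand). The stretches are shown 5′ to 3′ on the strand of the gene because they carry these elements, with the element in capitals. The arms compared below were set by the known roles of the genes and not by these matches. A match is a description of the sequence and not evidence of binding.
Per3 (D-box, D-box): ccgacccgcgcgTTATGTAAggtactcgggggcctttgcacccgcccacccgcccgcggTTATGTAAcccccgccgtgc
Cry1 (E′-box, E-box): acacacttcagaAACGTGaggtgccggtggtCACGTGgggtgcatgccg
Per1 (E-box): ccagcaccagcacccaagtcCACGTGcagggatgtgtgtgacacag
Nr1d1 (E′-box): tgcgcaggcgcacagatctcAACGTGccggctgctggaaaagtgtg
Arntl (RORE): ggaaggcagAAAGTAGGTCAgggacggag

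Levels are the deposited FPKM, fragments scaled to gene length in kilobases and to 1000000 library reads, which allow genes to be compared per length. The library totals behind them were 9141422 to 10976563 reads. A gene was called detected at 1 FPKM or more in every aliquot. By this rule 8 of the 10 members were detected, beside 21.7% of all 39304 rows, 76.6% of the 11142 genes above 0 in any aliquot and 36.5% of 21226 protein-coding rows. The median over the 10 members was 6.97 FPKM, and that of the genes above 0 was 10.6 FPKM. Marker genes of the labelled cells were present: 7 of 7 mesangial markers and 7 of 8 endothelial markers were detected, with Cldn5 listed at 0. The summed level over the aliquots was 8085 to 8538 FPKM for the mesangial list and 2282 to 2326 FPKM for the endothelial list. Of 6 podocyte markers, genes of the epithelial cell left out of the pool, 5 were detected, with a summed level of 240.0 to 255 FPKM. Their part in the clock gene levels was not tested. The 5 tubule, 5 leukocyte and 3 neuron markers were all listed at 0.

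In the activator arm Clock was detected and Arntl was listed at 0. Clock (ENSMUSG00000029238, chromosome 5, 76209868 to 76304792, minus strand, GRCm38), which encodes the DNA-binding partner with acetyltransferase activity, had 9.07, 8.46 and 7.86 FPKM in aliquots 1, 2 and 3, a mean of 8.46 ± 0.606 FPKM. It stood at percentile 46.2 of the genes above 0, near the middle of expressed genes. Arntl (ENSMUSG00000055116, chromosome 7, 113207465 to 113314126, plus strand), the obligate partner of Clock, was listed at 0 in each of the 3 aliquots. A count of 0 over the 3 libraries allows up to 3 reads, or 0.0374 FPKM over the mean annotated transcript, for counting error only. Among all protein-coding rows 54.5% were likewise listed at 0 in every aliquot, genes that most cells use among them, so a 0 is given as listed and not as absence. The paralogues of the activators were under 1 FPKM or listed at 0. Npas2, the substitute for Clock, had 0.379, 0.222 and 0.316 FPKM from 16 reads in all, and Arntl2, the paralogue of Arntl, was listed at 0. Clock was therefore 29.0 ± 7.98 times Npas2 in FPKM, a ratio that rests on few Npas2 reads and was 54.5 ± 15.0 with lengths of the longest transcript and 43.7 ± 12.03 with the exon union.

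Among the Per and Cry genes, whose proteins repress CLOCK and BMAL1, Per3 was far above the others. Per3 (ENSMUSG00000028957, chromosome 4, 151003652 to 151044665, minus strand), the period gene regarded as least needed for rhythm itself, had 68.2, 71.2 and 69.3 FPKM, a mean of 69.5 ± 1.51 FPKM at percentile 84.9. Per2 (ENSMUSG00000055866, chromosome 1, 91415982 to 91459324, minus strand), a main rhythm gene, had 5.23, 5.73 and 5.46 FPKM (5.48 ± 0.253). Per1 (ENSMUSG00000020893, chromosome 11, 69095217 to 69109960, plus strand), which also responds within minutes to hours to cyclic AMP and glucocorticoids, had 3.66, 3.65 and 4.67 FPKM (3.99 ± 0.589), highest in aliquot 3. No aliquot of Per3 overlapped any of Per1 or Per2. Per3 was 12.7 ± 0.315 times Per2 and 17.7 ± 2.49 times Per1 in FPKM, and it made up 88.0% ± 0.679 of the summed FPKM of the 3 period genes. The ratio to Per2 was 8.88 ± 0.220 with the longest transcript and 5.56 ± 0.138 with the exon union. With gene lengths set to the union of annotated exons the share of Per3 was 79.3% ± 0.800, and with the longest transcript 85.2% ± 0.686.

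The cryptochromes, which carry most of the direct repression of CLOCK and BMAL1, were at the low end. Cry1 (ENSMUSG00000020038, chromosome 10, 85131700 to 85185064, minus strand) had 3.30, 3.40 and 3.11 FPKM, a mean of 3.27 ± 0.148 FPKM at percentile 33.0. Cry2 (ENSMUSG00000068742, chromosome 2, 92403646 to 92434043, minus strand) was listed at 0 in each aliquot, which allows up to 0.0459 FPKM over the mean annotated transcript. Its exons overlap those of the transcript D930015M05Rik on the opposite strand over 295 of 6320 bases, and that transcript was listed at 0 too. Cry1 was the lowest of the 8 detected members in the deposited values. Its range did not overlap that of Per1, its neighbour in the order, but it did once lengths were set to the longest transcript or the exon union, where Cry1 had the higher mean (3.26 against 2.97 and 2.95 against 2.46 FPKM).

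**Figure D1:**
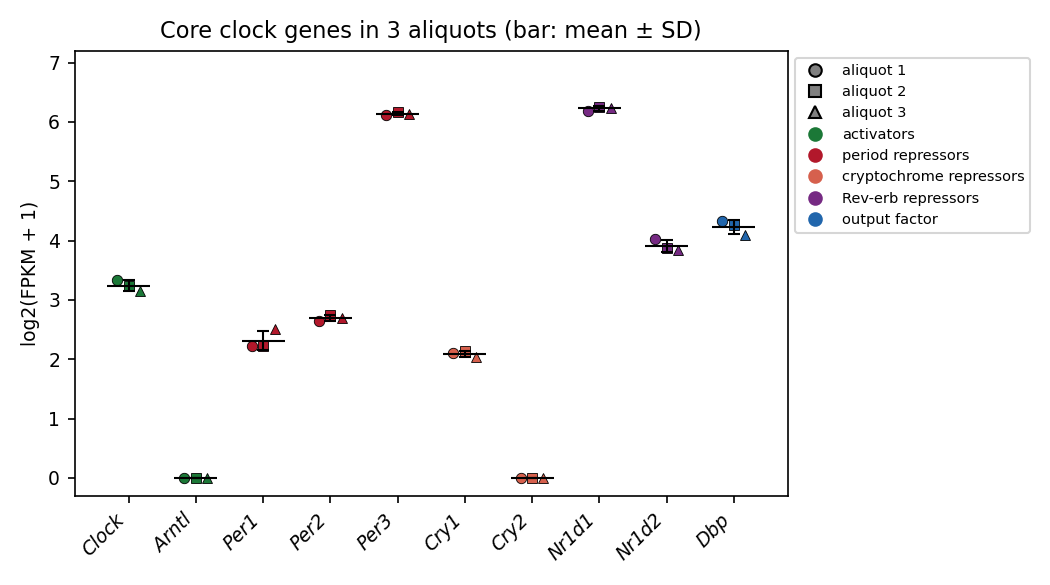
Level of the 10 core clock genes as log2(FPKM + 1) in each of the 3 aliquots (symbols), coloured by role, with the mean and SD as bars. Nr1d1 and Per3 stand above 6 on this scale, Arntl and Cry2 are listed at 0, and the aliquots of each gene lie close together.

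The second loop was led by Nr1d1. Nr1d1 (ENSMUSG00000020889, chromosome 11, 98767932 to 98775333, minus strand) had 71.8, 75.6 and 74.5 FPKM, a mean of 74.0 ± 1.97 FPKM at percentile 85.8 and the highest of the 10 members in the deposited values. Nr1d2 (ENSMUSG00000021775, chromosome 14, 18204054 to 18239127, minus strand) had 15.3, 13.7 and 13.3 FPKM (14.1 ± 1.08). The ranges of these paralogues did not overlap, and Nr1d1 was 5.28 ± 0.512 times Nr1d2 in FPKM (9.99 ± 0.969 with the longest transcript and 10.2 ± 0.994 with the exon union). The rescaled ratios use a length of 1586 bases implied by the deposited Nr1d2 values. Lengths of 3172 and 4758 bases give whole reads equally well and would lower these ratios, which their SD does not cover. The last exons of Nr1d1 and of the thyroid hormone receptor gene Thra, on the opposite strand, share 263 of 3077 exonic bases of Nr1d1. Thra had 62.7 ± 2.97 FPKM. Whether strand was used in counting is not given in the sources used here, so reads in the shared part cannot be assigned to either gene.

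The RORs compete with the REV-ERBs for the same element. Rora, the widely expressed ROR gene, had 41.2, 40.7 and 42.2 FPKM (41.3 ± 0.749), and the neural gene Rorb was listed at 0. Nr1d1 had 1.79 ± 0.0608 times the FPKM of Rora, which became 4.50 ± 0.153 times with the longest transcript and 4.78 ± 0.162 times with the exon union. The deposited values imply 2785 bases for Rora. Whole multiples of that length within its exon union fit equally and would lower the rescaled ratios. Rora had 2.95 ± 0.246 times the FPKM of Nr1d2. Transcripts of an activator and of both repressors of the RORE were thus present together with Arntl listed at 0.

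Among the output factors, Dbp (ENSMUSG00000059824, chromosome 7, 45705088 to 45710203, plus strand) had 19.2, 18.2 and 16.0 FPKM, a mean of 17.8 ± 1.61 FPKM at percentile 59.8. Clock was below it in every aliquot, with Dbp 2.10 ± 0.0571 times Clock in FPKM. Exons of Dbp and of the sphingosine kinase gene Sphk2 on the opposite strand share 539 of 2993 bases, and Sphk2 had 11.3 ± 0.577 FPKM, so the Dbp value carries the same uncertainty as that of Nr1d1. The other D-box activators were also detected. Hlf had 86.7, 82.7 and 84.0 FPKM (84.4 ± 2.02), and Tef had 12.8 ± 0.846 FPKM. Hlf was above every core member in the deposited values, which imply a length of 2098 bases for it. With that length it was below Nr1d1 and Per3 when scaled to the longest transcript (31.4 ± 0.753 FPKM) or the exon union (26.5 ± 0.636 FPKM). Whole multiples of that length would raise these rescaled levels, so this order holds for the length used here. Nfil3, the repressor at the same element, was listed at 0 in each aliquot.

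The order of the 8 detected members in deposited FPKM was Nr1d1, Per3, Dbp, Nr1d2, Clock, Per2, Per1 and Cry1, and no neighbours in it overlapped over the aliquots. This order depends in part on gene length. The deposited values imply 1751 bases for Nr1d1, 4193 for Per3, 1586 for Nr1d2 and 7478 for Clock, against longest annotated transcripts of 2721, 5999, 4663 and 9744 bases. Scaled to the longest transcript, Per3 (48.6 ± 1.05 FPKM) and Nr1d1 (47.6 ± 1.27 FPKM) overlapped and changed places, and Nr1d2 moved from rank 4 to rank 6 with 4.79 ± 0.368 FPKM. Whole multiples of the implied length that are no longer than the exon union give whole reads equally well for Per1, Per3, Nr1d2 and Dbp. They would raise the reads and the rescaled levels of these genes. The same limit applies to the rescaled levels and ratios of other genes where such a multiple fits. The order on the rescaled lengths therefore holds for the lengths used here. With those lengths the first 3 members were Nr1d1, Per3 and Dbp on each scale, and Arntl and Cry2 were listed at 0.

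**Figure D2:**
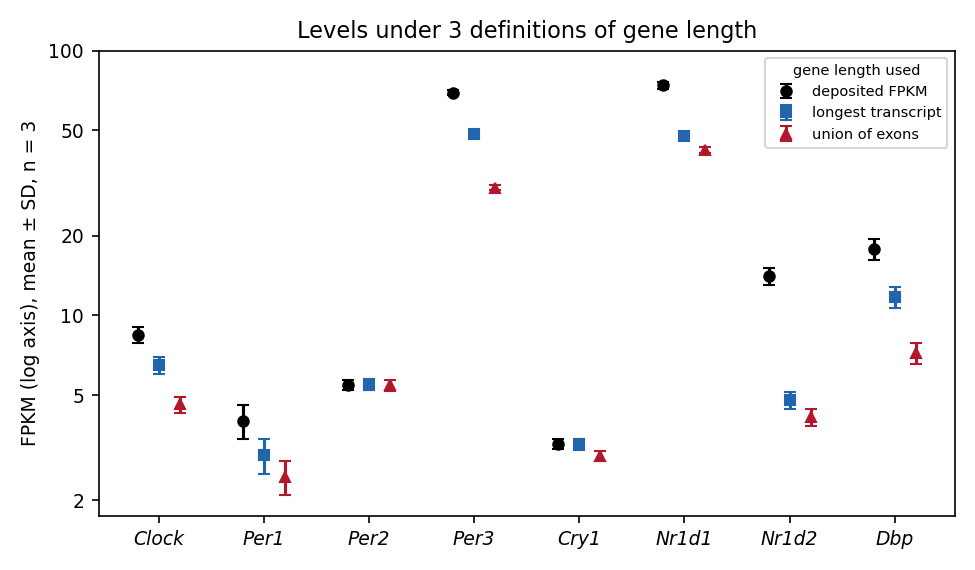
FPKM (log axis, mean ± SD, n = 3) of the 8 detected members as deposited and with gene length set to the longest annotated transcript or to the union of exons. With the lengths used here Nr1d1 and Per3 stay above the other 6 genes on each scale, while Nr1d2 moves from 14.1 to 4.79 and 4.13 FPKM.

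The activator and repressor arms were then set against each other within each library. The mean of log2(FPKM + 1) was 1.62 ± 0.0463 for Clock and Arntl and 2.65 ± 0.0303 for the Per and Cry genes. The difference of activators minus repressors was -0.95, -1.04 and -1.10 in aliquots 1, 2 and 3, a mean of -1.03 ± 0.0761. It rests on the genes listed at 0. Without Arntl and Cry2 the difference was 0.063, -0.078 and -0.20, a mean of -0.070 ± 0.130, which is within the spread of the aliquots. That value compares Clock alone with the mean of Per1, Per2, Per3 and Cry1. The sum over an arm gave another picture, since Per3 outweighs its paralogues: the 3 period genes summed to 79.0 ± 1.78 FPKM and the Rev-erb genes to 88.0 ± 1.14 FPKM, against 8.46 FPKM for the activators. Arntl minus the mean of Nr1d1 and Nr1d2 was -5.07 ± 0.0354, and Arntl minus Dbp was -4.23 ± 0.125 on the log2(FPKM + 1) scale. With Arntl listed at 0 these differences equal the levels of the other genes, and no fold is given.

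A further grouping, made after the values were seen and given with no test, sorted the clock transcription factors and repressors by the element known to regulate them. The genes repressed by REV-ERB through ROREs (Arntl, Npas2, Clock, Nfil3 and Cry1) had 2 of 5 detected, a median of 0.306 FPKM and a highest level of 8.46 FPKM. The genes driven through E-boxes or D-boxes (Per1, Per2, Per3, Nr1d1, Nr1d2, Dbp, Tef, Hlf, Bhlhe40, Bhlhe41, Ciart and Cry2) had 9 of 12 detected, a median of 13.4 FPKM and a highest level of 84.4 FPKM. Each group holds 2 genes listed at 0. The detected shares of 40.0% and 75.0% stand beside 36.5% of all protein-coding rows and 76.6% of all genes above 0. The groups were not separate gene by gene: in deposited FPKM Clock exceeded Per1, Per2 and Ciart in every aliquot, and with the exon union it exceeded Per1 and Ciart but was below Per2. Cry1 is placed with the RORE genes although its promoter also holds E-boxes.

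Paralogues in the E-box group were far apart. Bhlhe41, which encodes the E-box repressor DEC2, had 80.5, 78.2 and 75.8 FPKM (78.1 ± 2.36), whereas Bhlhe40, which encodes DEC1, was listed at 0. Ciart, a further repressor of CLOCK and BMAL1, had 0.578, 0.811 and 1.16 FPKM from 25 reads. Its promoter window held the E-box at 3 places and that of Bhlhe41 at 1. A relation between the number of matches and the level was not tested.

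**Figure D3:**
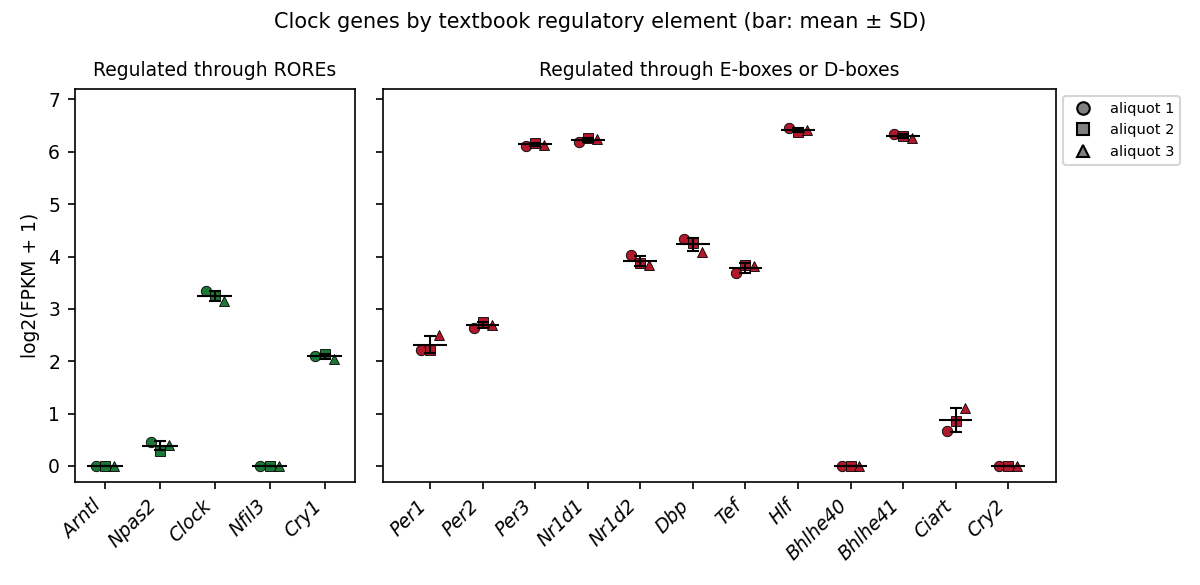
log2(FPKM + 1) in the 3 aliquots (symbols; bars are mean and SD) of clock genes regulated through ROREs (left) and through E-boxes or D-boxes (right). In deposited FPKM the left group reaches 8.46 with Clock, while the means of Per3, Nr1d1, Hlf and Bhlhe41 on the right are 69.5 to 84.4. Also on the right, Per1, Per2 and Ciart lie below Clock, and Bhlhe40 and Cry2 are listed at 0.

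Enzymes that set the stability of the clock proteins were measured as well. The shares of all genes detected, 36.5% of protein-coding rows and 76.6% of genes above 0, apply beside the counts of this and the following lists. Unless a length is named, levels in these lists are as deposited, and they can change with the gene length used. Rescaled levels in these lists use 1 implied length per gene. A whole multiple of it within the exon union fits equally and would raise them. Of 14 kinases and phosphatases 11 were detected, or 78.6%, with a median of 15.5 FPKM. Gsk3b, a kinase of several clock proteins, had 413 ± 11.4 FPKM, the phosphatase subunit gene Ppp1cb 267 ± 5.24 FPKM, casein kinase 1 alpha (Csnk1a1) 236 ± 4.48 FPKM and the casein kinase 2 subunit gene Csnk2b 116 ± 0.652 FPKM. The kinases best known for phosphorylating PER, casein kinase 1 epsilon and delta, differed: Csnk1e had 55.7, 62.0 and 63.6 FPKM, and Csnk1d had 0.567, 0.497 and 0.405 FPKM from 20 reads. With the longest transcript the means were 10.7 FPKM for Csnk1e and 0.180 FPKM for Csnk1d. With the exon union they were 5.13 and 0.132 FPKM. Gsk3a (1.34 ± 0.605 FPKM) was under 1 FPKM in aliquot 3, and Ppp1ca was listed at 0.

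Of 12 ubiquitin pathway genes 8 were detected, with a median of 19.2 FPKM. Among the detected genes were the ubiquitin ligase genes Ube3a (68.4 ± 2.55 FPKM) and Huwe1 (58.0 ± 1.17 FPKM) and the ligase adaptor gene Ddb1 (28.0 ± 0.840 FPKM). With the longest transcript the means of Ube3a, Huwe1 and Ddb1 were 35.4, 10.8 and 26.1 FPKM. With the exon union they were 16.9, 6.68 and 18.2 FPKM. Fbxl21, Siah2, Usp2 and Spsb4 were listed at 0. The PER ligase subunit genes Btrc (19.8 ± 0.324 FPKM) and Fbxw11 (20.3 ± 0.789 FPKM) were chosen for mention after their values were seen.

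Of 17 coregulators and associated factors 15 were detected, with a median of 17.6 FPKM. The scaffold gene Rack1 had 114 ± 3.19 FPKM, the PER-associated RNA-binding gene Sfpq 113 ± 2.16 FPKM, the REV-ERB corepressor gene Ncor1 95.5 ± 3.58 FPKM and Tipin, the partner of Timeless, 69.0 ± 2.42 FPKM. With the longest transcript the means of Rack1, Sfpq, Ncor1 and Tipin were 39.3, 39.8, 8.92 and 45.4 FPKM. With the exon union they were 34.2, 29.1, 6.29 and 44.7 FPKM. Timeless itself and Wdr5 were listed at 0. The deacetylase gene Hdac3, which works with NCOR1 and was chosen after its value was seen, had 1.77 ± 0.239 FPKM.

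Since Per1 is also an immediate early and glucocorticoid-induced gene, lists of both kinds were measured beside it. Of 14 immediate early genes 7 were detected, with a summed level of 214 to 222 FPKM over the aliquots. Dusp1, a phosphatase of MAP kinases, made up most of it with 148 ± 5.04 FPKM, followed by Btg2 (22.8 ± 0.356 FPKM), Zfp36 (15.6 ± 0.536 FPKM) and Klf4 (14.6 ± 1.53 FPKM). Fos, Fosl1, Junb, Egr2 and Atf3 were listed at 0. Of 10 glucocorticoid targets, Per1 among them, 7 were detected, led by Sgk1 (814 ± 20.2 FPKM) and Klf9 (89.1 ± 1.48 FPKM), while Cebpd was listed at 0. The part of cell dissociation or of hormone in the level of Per1 was not tested.

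The precision of these values was examined on read numbers recovered from the FPKM. The 8 detected members had 301 (Cry1) to 8913 (Per3) reads in total, with the whole factor of some of them uncertain as above. A chi-square test against the library totals was run on the 9119 genes of at least 30 reads, and it called 99 of them (1.09%) as varying more than sampling allows at a Benjamini-Hochberg adjusted p under 0.05. None of the 8 members was among them, with adjusted p from 0.41 to 0.96, and at an unadjusted p under 0.05 there were 2 of 8, beside 11.4% of all tested genes. These were Clock (unadjusted chi-square p = 0.038) and Per1 (unadjusted chi-square p = 0.042). Clock had 1.08 times its expected reads in aliquot 1 and 0.932 times in aliquot 3, and Per1 had 1.16 times in aliquot 3. For Per1 the result depends on a read number that a whole factor leaves uncertain: with the smaller solution of 58, 66 and 89 reads the unadjusted chi-square p was 0.21. The number of all genes called was 2 of 8846 without aliquot 1 and 65 of 8794 without aliquot 3, and no member was called in either. Of 48 tested genes in the wider clock lists 2 were called, among them Gsk3b (adjusted chi-square p = 0.0096), which was highest in aliquot 1. Reads of amplified cDNA are not independent molecules, so these tests cover counting error only.

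**Figure D4:**
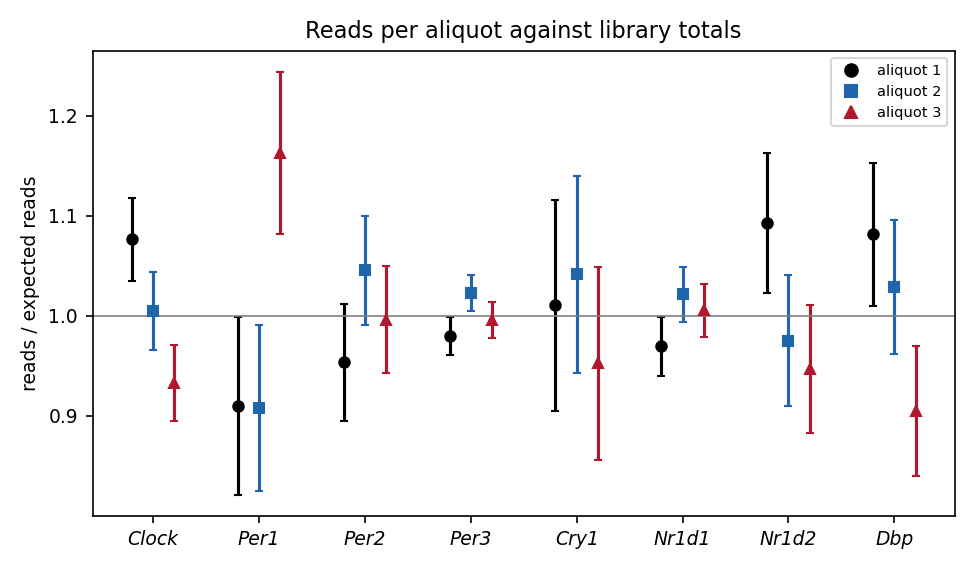
Reads of each detected member divided by the reads expected from the library totals, per aliquot, with error bars of the square root of the expected reads over the expected reads. Several points lie farther from 1 than their error bar, among them Per1 in aliquot 3 (1.16), Clock in aliquots 1 and 3 (1.08 and 0.932), Nr1d2 in aliquot 1 (1.09) and Dbp in aliquot 3 (0.905). The aliquots of Per3 and Nr1d1, which have the most reads and the shortest error bars, lie between 0.969 and 1.02.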

How the data were processed

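The table deposited by the authors holds FPKM for 3 aliquots in 39304 rows. Per the submitters' processing notes, TopHat2 2.0.12, HTSeq 0.6.1 and GRCm38 were used; how they were set, and which annotation and gene lengths were used, is not stated there. The reference name table gave symbols for 37607 rows, and gene models came from GENCODE M21 (GRCm38). The list name Chrono, an older name of Ciart, matched no row and was left out.

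Members and lists were chosen with earlier results of these data known. Named are the 10 members, up to 4 highest detected and 4 lowest undetected genes of each list, both genes of each pair, and genes whose exons overlap a member's. A few genes that this rule names are not reported here, though counts include them.

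Library totals were the most frequent value of 1 read among genes of 1 annotated transcript under 0.5 FPKM. For each gene the smallest length giving whole reads within 0.001 was taken, or a multiple within 1 base of the mean transcript length; all 11142 genes above 0 had a solution, and recovered reads made up 96.7% of each total. Spread was tested by chi-square with Benjamini-Hochberg adjustment, after testing on simulated data. Differences are on the log2(FPKM + 1) scale with no test, since 3 aliquots of 1 pool form 1 group; this scale understates low genes. Alternatives were other pseudocounts, detection limits, read minima, totals and gene lengths, and leaving out each aliquot. Python 3.11.15, scipy 1.17.1 and pandas 2.3.3 were used.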

Additional observations from a re-analysis of the deposited data

How the results depend on the processing

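The number of detected members stayed at 8 at limits of 0.5 FPKM or a mean of 1 FPKM, with lengths of the longest transcript, and without each aliquot, and was 6 at 5 FPKM. The wider lists had 47 of 68 genes detected (39 to 49 over the alternatives). The difference of activators minus repressors (-1.03) was -1.92 with a pseudocount of 0.1 FPKM, -1.44 with Npas2 added, -0.69 with medians, -3.14 with summed FPKM, -0.070 ± 0.130 without members under 1 FPKM, within the spread of the aliquots (0.063 in aliquot 1), and -1.07 to -0.99 with 1 aliquot left out. Arntl minus the Rev-erb genes (-5.07) was -8.34 with a pseudocount of 0.1 FPKM, -4.07 with the longest transcript and -3.89 with the exon union (-5.09 to -5.05 with 1 aliquot left out). Arntl minus Dbp (-4.23) was -7.48, -3.67 and -3.03 in the same order (-4.30 to -4.18). These follow from the construction, since Arntl is listed at 0. Of 114 alternatives for 19 gene pairs 68 stayed within 1 SD, 44 moved in size and 2 changed sign. Most of those that stayed were fixed in advance. Leaving out 1 of 3 aliquots cannot move a mean by 1 SD, and Arntl minus Arntl2 was 0 in every setting. The count of 68 is therefore no measure of stability. Both changes of sign were for Cry1 minus Per1 (-0.22), which was 0.11 with the longest transcript and 0.20 with the exon union. No member was called beyond sampling noise under any alternative, including 1 chosen after seeing the data that uses no multiples of the implied length. No paired analysis was possible because all aliquots belong to 1 group.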

Other observations

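Genes reported as clock outputs in kidney or vessels were listed as well. Of 14 such genes 9 were detected, with a median of 3.54 FPKM. The salt-handling kinase Sgk1 had 814 ± 20.2 FPKM, the glucocorticoid-induced leucine zipper gene Tsc22d3 52.9 ± 1.62 FPKM, the endothelial anticoagulant receptor Thbd 32.9 ± 0.590 FPKM and the lipid-sensing receptor Pparg 15.0 ± 1.09 FPKM. The cell cycle kinase Wee1, the tubular transporters Scnn1a and Slc9a3 and the receptor Ppara were listed at 0, as were all 5 tubule markers.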
